A study of Mus musculus with 6 samples.

Results

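Thick and thin filament genes of the cardiomyocyte were compared between doxorubicin-treated and vehicle-treated mice. The 9 genes were taken by name from a table of 24972 gene rows. They were Actc1, Tpm1, Tnnt2, Tnni3, Tnnc1 and Lmod2 for the thin filament, and Myl2, Myl3 and Mybpc3 for the thick filament. All 9 were present, and all 9 were among the 12477 genes whose mean over the libraries reached 10 and which were therefore tested. The values are normalized read counts, that is, counts that the authors scaled to make libraries comparable.

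Both groups consisted of MX1gfp mice, a strain with a green fluorescent protein reporter at the interferon-induced gene Mx1, so the vehicle mice carried the reporter as well. The vehicle group held 3 mice given phosphate-buffered saline, and the doxorubicin group held 3 mice given 25 mg of doxorubicin per kg of body weight, in each case as 100 microlitres into the peritoneal cavity. Doxorubicin is an anthracycline used against cancer, which poisons topoisomerase II and is toxic to the heart. Hearts were taken 48 hours later, the ventricles were digested with collagenase, and myocytes were settled by gravity, which enriches them without sorting. Neither age nor sex is among the labels used here. RNA came from many cells per library, so fewer cardiomyocytes in a library and less filament RNA per cardiomyocyte cannot be told apart.

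Every vehicle library was deeper than every doxorubicin library. Estimated reads were 7710000 to 11370000 in the former and 3660000 to 6170000 in the latter, so depth and treatment cannot be told apart. Across the genes tested, doxorubicin replicate 1 resembled the vehicle libraries (Spearman correlation 0.977 to 0.982), whereas replicates 2 and 3 had correlations of 0.860 to 0.914 with them. Results are therefore given with and without doxorubicin replicate 1. That library was singled out by its own values and not by a label. The p-values and calls without it are therefore descriptive and do not replace those from all 6 libraries. The labelled cell type was borne out by its markers in all 6 libraries. The summed level of 22 cardiomyocyte genes outside the filaments ranged from 461189 to 515943 with vehicle and from 129948 to 367916 with doxorubicin.

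The sarcomere shortens when myosin heads of the thick filament pull on actin of the thin filament. Tropomyosin and the 3 troponin subunits (T, I and C) lie along the actin and open it to myosin when calcium binds troponin C. Light chains stabilize and tune the myosin head, myosin-binding protein C sets how readily heads are released, and leiomodin lengthens the actin filament at its pointed end. In the adult mouse ventricle, these proteins are made mostly from the isoform genes studied here, while related genes serve the atria, the fetal heart, skeletal muscle or smooth muscle.

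The stretches before the start sites of 4 genes are shown because these genes were at the extremes of the response: Actc1 and Tnni3 were the most reduced after doxorubicin, and Tnnt2 and Lmod2 the least. Each is the 250 bases before a RefSeq start on GRCm38.p6, written 5' to 3' on the gene's strand. The starts used for Tnni3, Tnnt2, Mybpc3 and Tpm1, and the later start of Myl2, lay inside the gene spans given below. Their windows therefore lay partly or wholly within the gene, and that of Tnni3 mostly so. Capitals mark matches, on either strand, to a CArG box (the binding site of serum response factor), a MEF2 site, GATAA (bound by GATA factors), CATTCC (bound by TEAD factors) or TATAAA; no match overlapped another in these 4.
Actc1 (chr2:114052876-114053125, minus strand): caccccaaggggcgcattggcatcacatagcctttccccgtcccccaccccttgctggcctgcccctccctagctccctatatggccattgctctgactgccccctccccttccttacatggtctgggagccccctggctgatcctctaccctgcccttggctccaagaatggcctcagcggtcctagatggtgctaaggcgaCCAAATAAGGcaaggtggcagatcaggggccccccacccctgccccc
Tnni3 (chr7:4522529-4522778, minus strand): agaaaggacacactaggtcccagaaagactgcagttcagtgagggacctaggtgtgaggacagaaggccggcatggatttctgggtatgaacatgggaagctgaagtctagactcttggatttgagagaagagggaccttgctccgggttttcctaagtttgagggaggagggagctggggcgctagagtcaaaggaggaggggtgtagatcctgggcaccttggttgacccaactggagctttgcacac
Tnnt2 (chr1:135836084-135836333, plus strand): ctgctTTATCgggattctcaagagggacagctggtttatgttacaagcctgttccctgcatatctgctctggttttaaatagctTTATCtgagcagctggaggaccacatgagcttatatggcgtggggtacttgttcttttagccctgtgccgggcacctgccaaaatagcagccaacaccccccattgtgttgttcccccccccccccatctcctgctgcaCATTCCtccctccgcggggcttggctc
Lmod2 (chr6:24597521-24597770, plus strand): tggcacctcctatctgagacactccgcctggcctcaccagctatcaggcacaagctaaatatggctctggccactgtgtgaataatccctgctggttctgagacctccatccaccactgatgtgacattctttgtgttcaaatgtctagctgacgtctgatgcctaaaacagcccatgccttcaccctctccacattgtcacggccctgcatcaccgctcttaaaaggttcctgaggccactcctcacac
Actc1 held a CArG box beginning 47 bases before the start, Tnnt2 held GATAA at 245 and 166 bases and CATTCC at 27 bases, and the windows of Tnni3 and Lmod2 held none of the 5 motifs. Over 11 windows of the 9 genes (Myl2 and Tnnt2 have 2 starts each), a CArG box occurred in Actc1 and Myl3, against 1.47% of 32851 such windows of all genes and 1.62% of the 27025 genes they belong to. A MEF2 site occurred in Mybpc3 alone (2.92% of all windows), and TATAAA in Myl2 alone (12.4% of windows, 14.3% of genes). GATAA occurred in 4 of 9 genes, against 25.5% of all genes (22.6% of windows), and CATTCC in 4 of 9, against 14.4% (12.6% of windows). A match describes letters only, and its absence says only that the letters are not in this window.

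All 9 genes were lower in the doxorubicin group, as were 50.4% of all genes tested, with log2 fold changes from -2.10 for Actc1 to -0.64 for Lmod2 and a median of -1.31. The median of all genes tested was -0.0046. In all 9, the highest doxorubicin library lay below the lowest vehicle library, which was true of 22.6% of the genes tested. A log2 fold change below -1 was found in 7 of 9 members, against 6.39% of genes. By limma with Benjamini-Hochberg adjustment over all genes, 0 of 9 members passed an adjusted p of 0.05, as did 0% of all genes. The smallest adjusted p of a member was 0.0859 and the largest 0.249, while 7 of 9 had an unadjusted p under 0.05. That was true of 35.9% of all genes, 19.3% in the lower direction. An adjusted p under 0.10 was found for 4 members (Tnni3, Tnnc1, Lmod2 and Mybpc3), against 13.1% of genes in the lower direction. Leaving out doxorubicin replicate 1, 7 of 9 fell at an adjusted p under 0.05 (41.2% of genes were called, 21.8% as lower), with a median of -1.74. Tnnt2 and Lmod2 were the 2 that did not pass. Under quantile normalization, which forces all libraries onto one distribution, Tnnt2 was higher by 0.36, the median was -0.66 and the groups of 1 member did not overlap. With each library scaled to the same total, all 9 were lower and the groups of 8 members did not overlap. Scaling by the median of ratios left the values nearly unchanged, so its result, 9 lower and 9 without overlap, only repeats the main one. The median of all genes was 0.30 with equal totals, -0.023 under quantile normalization and -0.0045 by the median of ratios. The shares of all genes that were lower or did not overlap were not computed under these scalings.

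**Figure D1:**
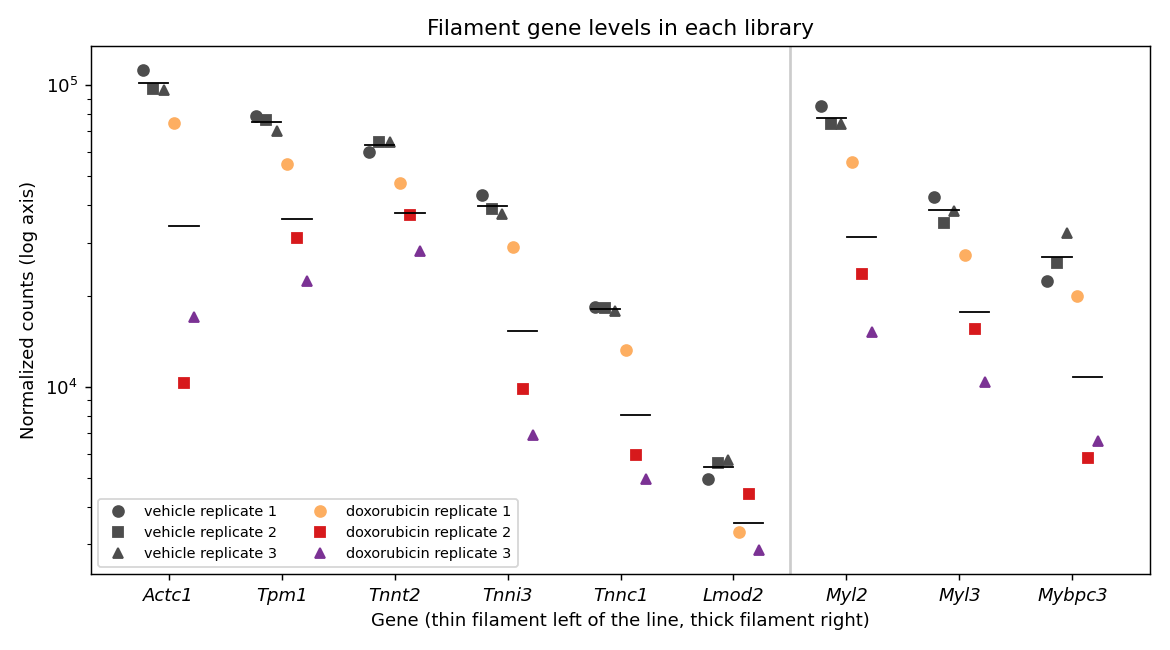
Normalized counts (log axis) of the 9 filament genes in each of 6 libraries, with group means as short black lines (n = 3 mice in each group); thin filament genes stand left of the grey line. In each gene all doxorubicin points lie below all vehicle points, and doxorubicin replicate 1 is the highest doxorubicin point in 8 of the 9, Lmod2 being the exception.

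Together the 9 genes made up 5.82% to 6.47% of the normalized counts in the vehicle libraries. After doxorubicin their share was 5.00% in the first library, 2.37% in the second and 2.11% in the third. Per kilobase of transcript, a scale on which genes can be compared, Myl2 was the highest member in the vehicle group at 117316 ± 9287 (SD, n = 3). It was followed by Actc1 (68963 ± 6077), Tnnt2 (52615 ± 2213), Tnni3 (43544 ± 3402), Myl3 (41079 ± 4127), Tpm1 (25987 ± 1453), Tnnc1 (25147 ± 340), Mybpc3 (6441 ± 1210) and Lmod2 (2738 ± 214). Tnni3 and Myl3 did not differ beyond their spread, nor did Tpm1 and Tnnc1. The order of the other 5 was the same in every vehicle library and in doxorubicin replicate 1. Actc1 was at rank 2 in those 4 libraries but at rank 7 in doxorubicin replicate 2 and rank 3 in replicate 3. Tnnt2 stood at rank 3 in those 4 libraries, at rank 2 in doxorubicin replicate 2 and at rank 1 in replicate 3. Lengths are those of the longest GENCODE M21 transcript with a RefSeq accession, and Tpm1 makes several transcripts of different length.

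Among the thin filament genes, Actc1 (chromosome 2, 114047282 to 114052875), which encodes cardiac alpha-actin, the filament's backbone, differed most. The vehicle libraries held 111902, 96926 and 95919 normalized counts of it. The doxorubicin libraries, in the order of their replicate numbers as below, held 74847, 10311 and 16994. The groups did not overlap, but the first doxorubicin library was much nearer to the vehicle libraries than to the other doxorubicin libraries. The means were 101583 ± 8951 and 34051 ± 35488 (SD, n = 3 in each group). The log2 fold change was -2.10 (SE 0.76, adjusted p 0.103 by limma). Without doxorubicin replicate 1, Actc1 fell by 2.94 (SE 0.42, adjusted p 0.0015 by limma).

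Tpm1 (chromosome 9, 67022590 to 67049672) encodes the tropomyosin that covers the myosin-binding sites of actin. Vehicle values were 78639, 76206 and 70461 normalized counts, and doxorubicin values 54448, 30958 and 22310.1. Its log2 fold change was -1.16 (SE 0.52, adjusted p 0.15 by limma). The values of the 3 doxorubicin libraries were spread widely, although all lay below vehicle.

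The 3 troponin subunits, which act as 1 complex, were all lower. Tnni3 (chromosome 7, 4518305 to 4522718) encodes the inhibitory subunit. Its values were 43165, 38812 and 37160 with vehicle and 29111, 9826 and 6888 with doxorubicin, which differ by -1.66 on the log2 scale (SE 0.55, adjusted p 0.0903 by limma). Tnnc1 (chromosome 14, 31208312 to 31211729), the calcium-binding subunit, had very even vehicle values of 18331, 18205 and 17858, against 13221, 5951 and 4952 after doxorubicin. Its difference was -1.31 (SE 0.40, adjusted p 0.0859), the smallest adjusted p of the 9. Tnnt2 (chromosome 1, 135836315 to 135852268), the subunit that binds tropomyosin, had values of 60072, 64620 and 64722 in vehicle and 47160.4, 37144 and 28194 after doxorubicin. The log2 fold change of Tnnt2 was -0.78 (SE 0.46, adjusted p 0.249 by limma). The doxorubicin mean was 59.4% of the vehicle mean for Tnnt2, 44.4% for Tnnc1 and 38.5% for Tnni3, and the ratios between the subunits overlapped between the groups.

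Lmod2 (chromosome 6, 24597771 to 24605414), the cardiac leiomodin, was the least reduced and followed another order of libraries. It had 4928, 5597 and 5707 normalized counts in vehicle and 3311, 4406 and 2872 after doxorubicin. Here doxorubicin replicate 2 was the highest of the treated libraries, whereas it was the middle or the lowest for each of the other 8 genes. The log2 fold change was -0.64 (SE 0.23, adjusted p 0.0992 by limma), and -0.60 without doxorubicin replicate 1 (adjusted p 0.0705). About 1940 reads stood behind the lowest of these values, for a counting error of 2.27%, so counting error is small against the spread between libraries.

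Among the thick filament genes, both ventricular light chains were lower. Myl2 (chromosome 5, 122092724 to 122113473) encodes the regulatory light chain, which is phosphorylated to tune contraction. It had 84761, 74245 and 73984 normalized counts in vehicle and 55387, 23628 and 15214 after doxorubicin, which differ by -1.52 on the log2 scale (SE 0.58, adjusted p 0.113 by limma). Myl3 (chromosome 9, 110763678 to 110769802) encodes the essential light chain. Its values were 42495, 34777 and 38202 in vehicle and 27289, 15508 and 10324 after doxorubicin, a difference of -1.23 on the log2 scale (SE 0.45, adjusted p 0.103 by limma). In both light chains the doxorubicin libraries fell into the same order, with replicate 1 highest and replicate 3 lowest.

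Mybpc3 (chromosome 2, 91118114 to 91136516) encodes cardiac myosin-binding protein C. It was the most variable of the 9 in the vehicle group, at 22460.1, 25649 and 32333 (coefficient of variation 18.8%, against 1.35% to 10.0% for the others). The doxorubicin values were 19891, 5818 and 6613. The log2 fold change was -1.53 (SE 0.50, adjusted p 0.0887 by limma). Doxorubicin replicate 1 lay just below the lowest vehicle library.

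**Figure D2:**
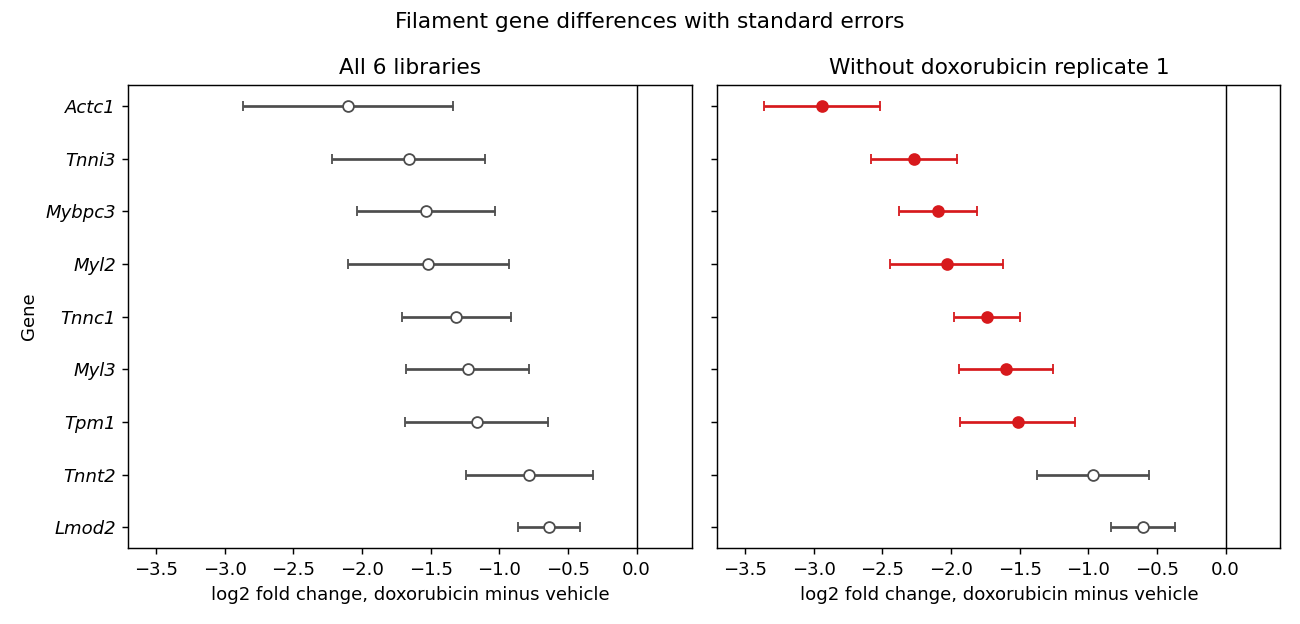
log2 fold change (doxorubicin less vehicle, from log2(value + 1)) of each filament gene with its standard error as a horizontal bar, with all 6 libraries and without doxorubicin replicate 1; filled red points have a limma adjusted p under 0.05. No point is filled with all libraries, and 7 are filled without that library.

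The 3 doxorubicin libraries differed in how evenly the 9 genes were reduced. In doxorubicin replicate 1 the reduction was nearly uniform: 8 genes stood at 70.9% to 74.7% of their vehicle mean and Lmod2 at 61.2%. In replicate 2 the members ranged from 10.2% for Actc1 to 81.4% for Lmod2, and in replicate 3 from 16.7% for Actc1 to 53.1% for Lmod2. The SD over the 9 genes of the log2 change was 0.089 in replicate 1, 0.87 in replicate 2 and 0.57 in replicate 3, against 0.061 to 0.14 in the vehicle libraries. In replicate 1 the genes thus differed from each other no more than they did among vehicle libraries. These SDs describe libraries and were not tested.

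**Figure D3:**
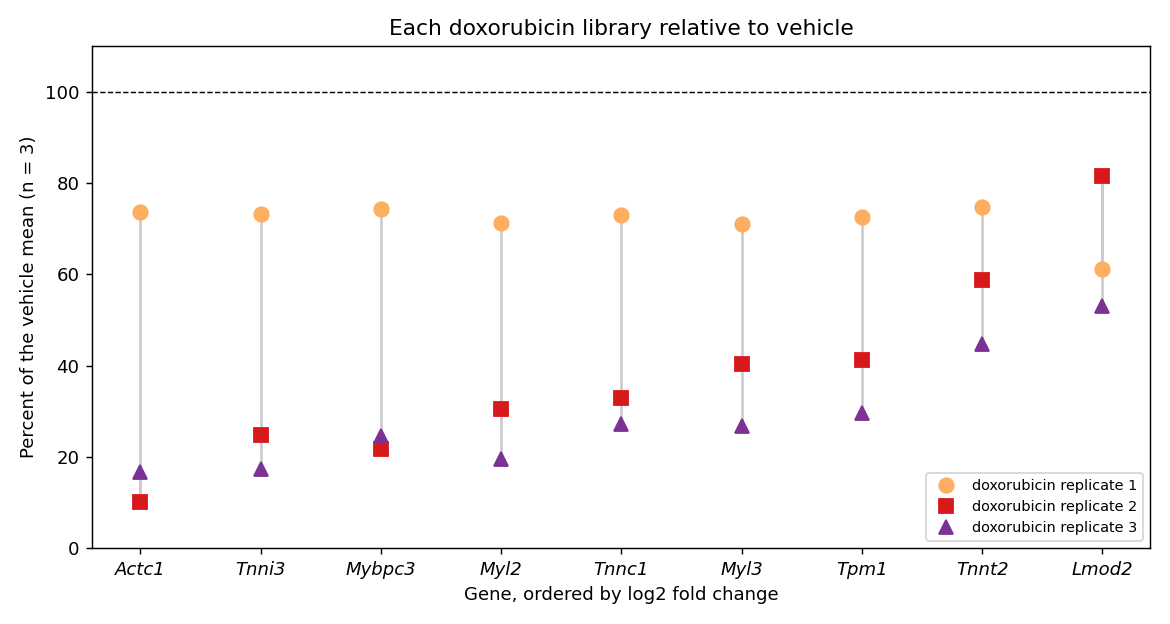
Level of each filament gene in each doxorubicin library as a percent of the mean of 3 vehicle libraries, with genes ordered by log2 fold change; the dashed line is the vehicle mean. Replicate 1 forms a nearly level row for 8 genes between 70.9% and 74.7%, while replicates 2 and 3 rise from Actc1 on the left to Tnnt2 and Lmod2 on the right.

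Ratios between genes within a library, which do not depend on library scale, showed the same division. The ratio of Tnnt2 to Tnni3 was 1.39, 1.66 and 1.74 in vehicle and 1.62 in doxorubicin replicate 1, but 3.78 and 4.09 in replicates 2 and 3. The ratio of Tnnt2 to Tnnc1 was 3.28 to 3.62 in vehicle, 3.57 in doxorubicin replicate 1, and 6.24 and 5.69 in the other two. The ratio of Tpm1 to Actc1 was 0.703 to 0.786 in vehicle, 0.727 in doxorubicin replicate 1, and 3.00 and 1.31 in replicates 2 and 3. The ratio of the light chains, Myl2 to Myl3, went the other way, from 1.94 to 2.13 in vehicle to 2.03, 1.52 and 1.47 after doxorubicin. Tmod1 encodes tropomodulin, which caps the pointed end where leiomodin adds actin. The ratio of Lmod2 to Tmod1 was 1.47 to 1.78 in vehicle and 1.18, 3.53 and 2.67 after doxorubicin. In each of these 5 pairs the groups overlapped, because doxorubicin replicate 1 lay within the vehicle range or beyond it on the other side.

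By an exact two-sided permutation test of the log2 ratio, the 12 pairs examined gave p from 0.1 to 1, or 0.514 to 1 after Benjamini-Hochberg adjustment. With 3 libraries against 3 the smallest possible p is 0.1, so no pair could pass 0.05. That smallest value was reached by Actb to Actc1, the ratio of non-muscle to cardiac actin. It was 0.0351 to 0.0451 in vehicle and 0.068, 0.381 and 0.355 after doxorubicin, and its groups did not overlap.

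**Figure D4:**
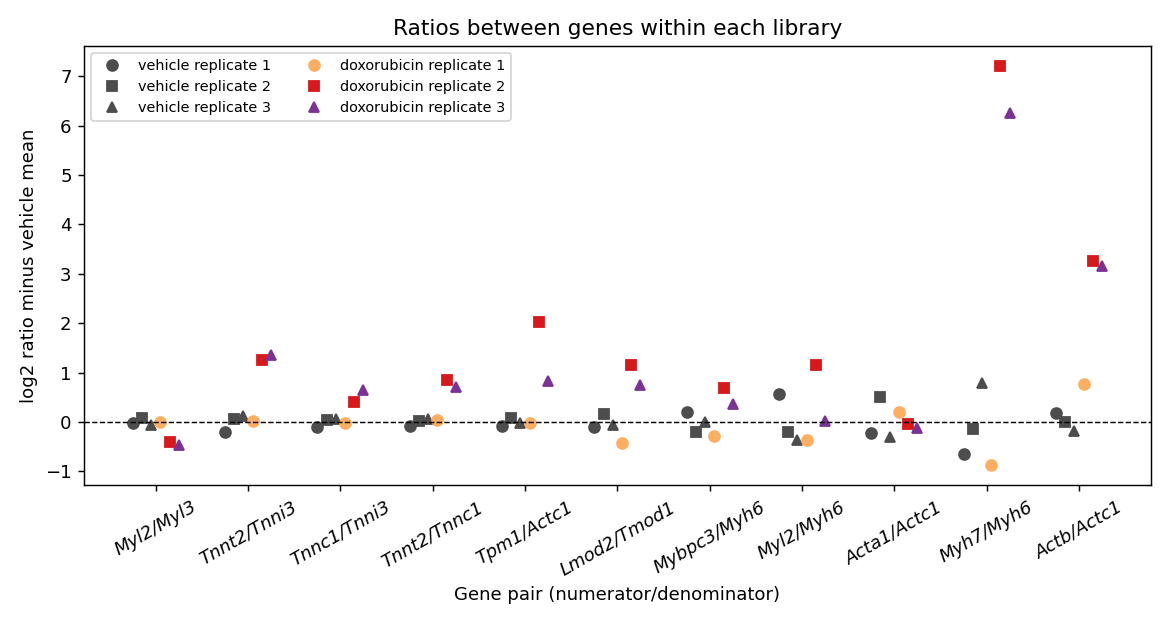
log2 ratio of 11 gene pairs in each library, minus the mean of the 3 vehicle libraries for that pair; the dashed line is the vehicle mean. For troponin, tropomyosin to actin and leiomodin to tropomodulin, doxorubicin replicates 2 and 3 stand apart while replicate 1 lies with or below vehicle, and Myh7 to Myh6 shows the widest separation.

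The related isoforms of striated muscle did not all follow the 9 genes. Of 17 such genes, 12 were tested, of which 7 were lower and 5 higher. Their median difference was -0.40 on the log2 scale, and 0 passed the limma threshold. Without doxorubicin replicate 1 the median was -1.09. At a limma adjusted p under 0.05, 5 were then lower, against 21.8% of all genes (Myh6, Acta1, Tnnt1, Mybpc2 and Lmod3). At that threshold 1 was higher, Myh7, against 19.4%. Vehicle and doxorubicin values were fully apart in 2 of the lower genes, Mybpc2 and Lmod3 (22.6% of all genes), and in Mylpf among the higher (19.2%). The 2 myosin heavy chains, the motors of the thick filament, went in opposite directions in doxorubicin replicates 2 and 3. In doxorubicin replicate 1 both lay within the vehicle range, so the groups overlapped for both. Myh6 differed by -1.79 (SE 0.93, adjusted p 0.199 by limma). Myh6, the adult ventricular form (chromosome 14, 54941921 to 54968017), had 181986 to 300008 normalized counts in vehicle and 225671, 33549 and 47431 after doxorubicin. Myh7, the slower form that dominates in the fetal ventricle (chromosome 14, 54970684 to 54994626), had 336, 711 and 1509 in vehicle and 355, 14376 and 10524 after doxorubicin. Myh7 differed by 2.41 (SE 1.33, adjusted p 0.223 by limma) with all libraries, and rose by 4.11 without doxorubicin replicate 1 (limma adjusted p 0.00091). The ratio of Myh7 to Myh6 was 0.00185 to 0.00503 in vehicle, 0.00157 in doxorubicin replicate 1, and 0.429 and 0.222 in replicates 2 and 3. These neighbouring genes are similar in sequence, so reads may be shared between them.

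Acta1, skeletal alpha-actin, is another gene of the fetal heart, but it did not go with Myh7. Its values were 1240, 1789 and 1007 in vehicle and 1119, 129 and 199 after doxorubicin, a difference of -2.09 on the log2 scale (SE 0.72, adjusted p 0.0955 by limma). The ratio of Acta1 to Actc1 stayed between 0.0105 and 0.0185 in all 6 libraries, and its mean difference on the log2 scale was 0.017. Lmod3, the leiomodin related to Lmod2, had 905, 917 and 1148 normalized counts in vehicle and 638, 97.4 and 206 after doxorubicin. Its difference of -2.07 (SE 0.59, adjusted p 0.0859 by limma) was larger than that of Lmod2, and it fell by 2.79 without doxorubicin replicate 1 (limma adjusted p 0.00043). Mybpc2, the fast skeletal myosin-binding protein C, differed by -1.45 (adjusted p 0.0859), near the -1.53 of Mybpc3.

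The remaining isoforms were present at low levels. The slow skeletal troponin T gene Tnnt1, which lies next to Tnni3 on chromosome 7, had 101 to 128 normalized counts in vehicle and 137, 50.5 and 52.6 after doxorubicin (log2 fold change -0.63). Tnnt1 fell by 1.09 without doxorubicin replicate 1 (adjusted p 0.0034 by limma). Myh7b had 267 to 490 in vehicle and 397, 65.7 and 301 after doxorubicin. Its difference of -0.90 was -1.39 without doxorubicin replicate 1 and -0.10 without replicate 2. Myl1 differed by -0.18, or 0.12 with each library scaled to the same total. The atrial light chains Myl4 and Myl7 were highest in doxorubicin replicate 1, at 266 and 236, against 28.7 to 87.6 in the other libraries. Mybphl, also higher in atria, was highest there too, at 26.4 against 5.75 to 12.1. Mylpf, a fast skeletal light chain, rested on few reads, with 4.86 to 7.84 in vehicle and 11.8 to 19.1 after doxorubicin. Tnni1, the troponin I of the fetal heart, was not tested and did not exceed 3.03 in any library, and Tnnt3, Tnni2, Tnnc2 and Mybpc1 were also below the minimum mean.

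**Figure D5:**
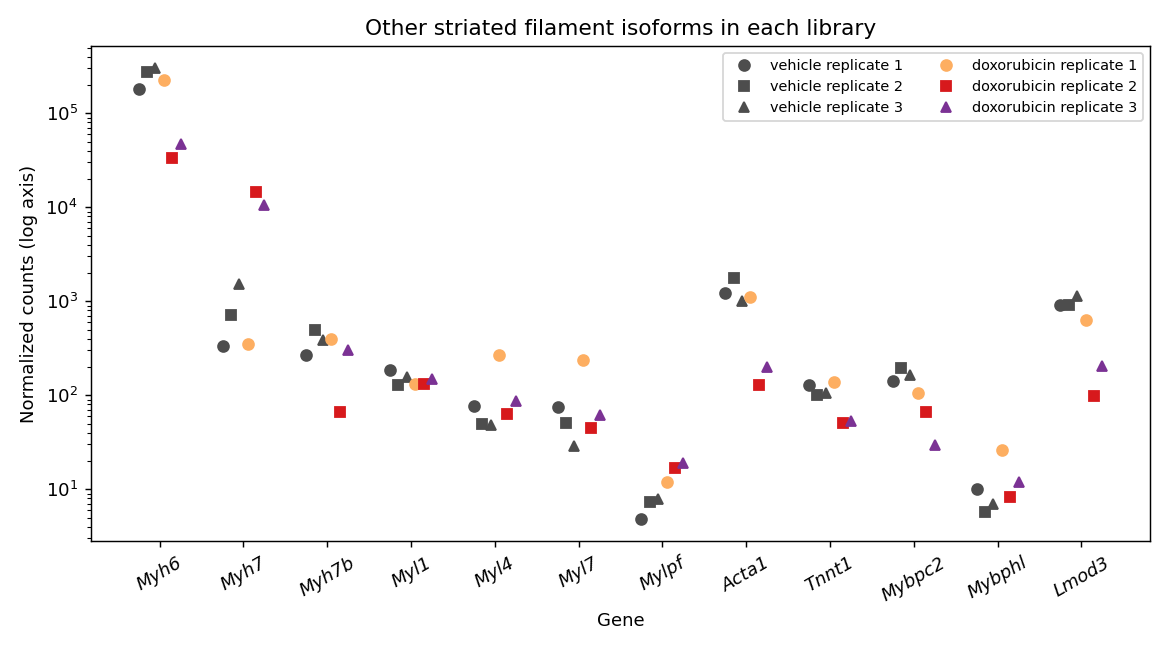
Normalized counts (log axis) of the 12 tested isoforms of filament proteins in each library. Myh7 in doxorubicin replicates 2 and 3 lies above every vehicle library while Myh6, Acta1 and Lmod3 lie below, and doxorubicin replicate 1 is highest for Myl4, Myl7 and Mybphl.

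Genes for filament assembly and length were mostly lower. Of 19, all tested, 17 were lower and 2 higher, with a median of -0.89. Values of the groups were fully apart in 14 of the lower genes (22.6% of all genes), and 0 passed the limma threshold. Without doxorubicin replicate 1, 14 of 19 were lower at a limma adjusted p under 0.05, against 21.8% of all genes. Nebl, which encodes the thin filament protein nebulette, had the lowest log2 fold change at -1.29 (adjusted p 0.0891), and Fhod1, a formin that elongates actin, the highest at 0.67 (adjusted p 0.132). Ttn, the giant protein that spans the sarcomere and the most abundant of the list, had 16754 to 32777 normalized counts in vehicle and 26974, 5500 and 7809 after doxorubicin. Tmod1 had 3153 to 3769 in vehicle and 2794, 1247 and 1076 after doxorubicin, a log2 fold change of -1.13 (adjusted p 0.086).

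Of 17 genes for kinases, phosphatases and ubiquitin ligases that act on the filaments, 16 were tested, with 11 lower, 5 higher and a median of -0.54. Values were fully apart in 7 lower genes (22.6% of all genes) and 2 higher (19.2%), and 0 passed the limma threshold. Without doxorubicin replicate 1, 8 were lower (21.8% of all genes) and 1 higher (19.4%) at a limma adjusted p under 0.05. Mylk3, the kinase of the regulatory light chain in heart and the most abundant of the list, had 4217 to 5573 in vehicle and 3440, 3981 and 2408 after doxorubicin. Its log2 fold change was -0.54 (adjusted p 0.158), against -1.52 for Myl2. Mylk4, a related kinase, was the lowest of the list at -2.16 (adjusted p 0.102), with 1207 to 2347 in vehicle and 1349, 117 and 346 after doxorubicin. Pak1 was the highest at 0.65 (adjusted p 0.325) and rested on 8.38 to 27.8 normalized counts.

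The 12 transcription factor genes that act on sarcomere genes were all lower, with log2 fold changes from -1.07 for Myocd, a partner of serum response factor, to -0.17 for Gata6 and a median of -0.43. Gata6 was higher by 0.13 with each library scaled to the same total. The signs of the factors not named here were not examined under that scaling. Values were fully apart in 3 of 12, near the 22.6% of all genes, and 0 passed the limma threshold. Without doxorubicin replicate 1, 8 of 12 were lower at a limma adjusted p under 0.05, against 21.8% of all genes. Mef2a, the most abundant of them, had 1891 to 2436 normalized counts in vehicle and 2141, 1411 and 1562 after doxorubicin.

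The genes listed for non-muscle actins, myosins and tropomyosins were mostly higher. Of 11 genes, 9 were higher and 2 lower, with a median of 0.30, and 0 passed the limma threshold. Values were fully apart in 3 of the higher genes (19.2% of all genes). The same 3 were higher at a limma adjusted p under 0.05 without doxorubicin replicate 1 (19.4% of all genes): Tpm3 (0.0036), Tmod3 (0.0057) and Myl12b (0.015). Actb, non-muscle beta-actin, had 3366 to 5043 normalized counts in vehicle and 5092, 3925 and 6036 after doxorubicin (log2 fold change 0.29, adjusted p 0.422). Tpm3 was the highest of the list, at 667 to 919 in vehicle and 1090.1, 1454 and 1717 after doxorubicin (0.83, adjusted p 0.0859), and Myh14 the lowest at -0.34. Myl12a, the most abundant, differed by -0.25, or 0.05 with equal totals and 0.20 under quantile normalization.

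Other genes of the cardiomyocyte were also lower, and no test of a difference between them and the members was made. The 22 cardiomyocyte genes outside the filaments were all lower, from -1.74 for Casq2, the calcium store protein, to -0.19 for Corin, with a median of -1.23 against -1.31 for the members. Corin was higher by 0.11 with equal totals and by 0.02 under quantile normalization. Values were fully apart in 16 of the 22 (22.6% of all genes), and 0 passed the limma threshold. Without doxorubicin replicate 1 the median of the 22 was -1.66, and 18 were lower at a limma adjusted p under 0.05 (21.8% of all genes). Atp2a2, the calcium pump and the most abundant of the list, differed by -1.49 (adjusted p 0.173). In doxorubicin replicates 1 to 3 the list's medians were -0.41, -1.47 and -1.84, and those of the members were -0.46, -1.61 and -1.89. Relative to the mean of the 22 genes in each library, Tnnt2 stood at -0.029, 0.54 and 0.64 in doxorubicin replicates 1 to 3 and Lmod2 at -0.31, 1.01 and 0.89. Actc1 stood at -0.046, -1.99 and -0.78 and Tnni3 at -0.054, -0.71 and -0.72 on the same log2 scale. Tpm1 stood at -0.071, 0.027 and 0.051 and Myl3 at -0.10, -0.0030 and -0.093, close to that mean in all 3 libraries.

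The genes most like the members, by Pearson correlation of log2(value + 1) with the members' mean profile over the 6 libraries, were sought among 1197 others with a mean of at least 1000. They were Sod2 (0.9995), the mitochondrial superoxide dismutase, Mb (0.9985), the oxygen store myoglobin, Ckmt2 (0.9984), the mitochondrial creatine kinase of muscle, Trim72 (0.9983), which acts in membrane repair, and Mrpl12 (0.9978), a protein of the mitochondrial ribosome. Among the members, Tnnc1 was most like the mean of the other 8 (0.9996) and Lmod2 least (0.688). These points share libraries, depth and treatment group, and the correlations are descriptions over 6 libraries.

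Markers of macrophages, neutrophils, endothelium and fibroblasts were mostly higher in the doxorubicin group, while those of smooth muscle were mixed. The erythroid markers tested had no clear direction. Their log2 fold changes were negative but their doxorubicin means were higher, with doxorubicin replicate 1 far above the other libraries. With all 6 libraries, 0 markers passed the limma threshold. Of 10 macrophage markers, 10 were higher after doxorubicin, and their summed level was 2489 to 2727 with vehicle, against 4149, 6801 and 15479 with doxorubicin. Of 8 endothelial markers, 7 were higher (sum 16037 to 22444 against 29149 to 38602), and of 8 fibroblast markers, 7 were higher (sum 6236 to 8274 against 8639 to 22816). Most of the fibroblast sum in doxorubicin replicates 2 and 3 was Dcn, at 2446 to 2905 with vehicle and 3113, 18072 and 11326 with doxorubicin, while Postn differed by 0.037 and Col3a1 by -0.42 on the log2 scale. The 6 neutrophil markers summed to 10.5 to 21.7 in vehicle and 55.0, 563 and 419 after doxorubicin, with Ly6g listed at 0 in 4 libraries. The 11 smooth muscle and pericyte markers summed to 6659 to 11846 and 8417 to 11869, mostly Rgs5 (log2 fold change 0.56). Of the 9 tested, 4 were higher and 5 lower, among them Acta2 (-1.08), Myl9 (-0.70) and Myh11 (-0.45). The 5 atrial markers summed to 456 to 526 in vehicle and 1431, 368 and 708 after doxorubicin, and Bmp10 was listed at 0 in the vehicle libraries. Erythroid markers were highest in doxorubicin replicate 1 (8852, against 250 to 1999 elsewhere), with Hbb-bs listed at 0 throughout, and 7 lymphocyte markers summed to at most 66.1. The part of these cells in the lower filament values was not tested.

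Transcripts of Xist and of the Y chromosome divided the libraries otherwise than treatment did, with vehicle replicate 3 and doxorubicin replicates 1 and 3 in the Xist class. Among the 3 libraries of the Y-linked class, the median difference of the members was -1.62, from 1 doxorubicin library. Among those with Xist it was -1.19, from 1 vehicle library. All 9 members were lower in both, which the lack of overlap between the groups fixed beforehand for any split of libraries.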

How the data were processed

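RNA from settled cardiomyocytes of 3 vehicle-treated and 3 doxorubicin-treated mice was sequenced, with n = 3 per group per the series text. Reads were aligned with STAR to mm10 with RefSeq genes in the BaseSpace RNAseq Alignment application, followed by the RNA-seq Differential Expression application, per the labels' design text. The submitters' processing notes also name STAR 2.6.1a and Salmon. The deposited table holds normalized read counts per gene, a signal with no value below 0, scaled by the authors. The counting settings, the use of strand and the normalization method were not given in the sources used here. Dividing by median-of-ratios size factors again left the members' values unchanged to 2 decimals on the log2 scale.

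Groups and replicate numbers came from sample titles. Genes with a mean of at least 10 were tested on log2(value + 1) with limma 3.58.1 in R 4.3.3, using a trended prior, two-sided tests and Benjamini-Hochberg adjustment over 12477 genes at 0.05. The test was checked on simulated data in which the libraries of a group shared the same means and spread. The check therefore does not cover a library that departs from its group, as doxorubicin replicate 1 did. Depth was estimated from the spacing of low values, of which 80.6% to 92.5% per library lay within 0.1 of a whole multiple of a step. This did not give whole reads for nearly all genes, so count tests were not used. Ratios were compared by exact permutation. Figures were drawn with matplotlib 3.10.9. Gene coordinates and upstream sequences are from RefSeq on GRCm38.p6, whose chromosomes are those of mm10, and count from 1; all 9 members matched. The members and gene lists were chosen with earlier results of these data known. Genes named beside the members were all tested striated isoforms, the highest and lowest fold change and the highest mean of each other list, the 5 most alike, and the genes of the ratio pairs. Alternatives covered pseudocount, filter, scaling, moderation, library weights, the replicate block, the Xist or Y-linked class, length and GC content, the threshold, and leaving out each library. The values of 1 marker gene are not reported here.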

Additional observations from a re-analysis of the deposited data

How the results depend on the processing

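With all 6 libraries at equal weight and a threshold of 0.05, limma called 0 genes higher, 0 lower and 0 of 9 filament genes under each pseudocount, filter, scaling, moderation, class covariate and length and GC setting tried. Library weights, which gave doxorubicin replicate 1 a weight of 0.277, called 1954 genes higher, 2318 lower and 7 members. A threshold of 0.10 called 1383 higher, 1639 lower and 4 members. Leaving out 1 library at a time gave 0 to 2421 genes higher, 0 to 2715 lower and 0 to 7 members called, and the members' median ran from -1.74 to -1.03. The calls came only from leaving out doxorubicin replicate 1. The groups of all 9 members were apart with all 6 libraries, so leaving out a library could not make them overlap. With equal totals the groups of 8 members were apart, and under quantile normalization those of 1. The shares of all genes with groups apart were not computed under these scalings.

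Signs of fold changes were compared between settings only for the members and the genes named beside them by rule. Among these, quantile normalization reversed Tnnt2 (0.36), Myl12a (0.20) and Corin (0.023). Among the same genes, equal totals reversed Myl1 (0.12), Myl12a (0.050), Gata6 (0.13) and Corin (0.11). Equal totals moved the median of all genes to 0.30. Other genes of the lists with small negative fold changes were not examined for a reversal. The sign of 2 ratios changed when a library was left out: Myl2 to Myh6 ran from -0.17 to 0.59 and Acta1 to Actc1 from -0.13 to 0.28. The cause was not tested. The labels do not say that replicate numbers pair mice. Deviations from the group means were correlated across genes at -0.13, 0.033 and -0.093 between same-numbered libraries. Between differently numbered libraries of the 2 groups they ran from -0.18 to 0.22. These correlations cannot settle whether mice were paired. With the replicate block 0 genes were called, the members' median was -1.31 and their adjusted p ran from 0.128 to 0.475. Permuting the ratios only within replicate numbers gave p from 0.25 to 1 for the 12 pairs. The smallest p that this permutation can give is 0.25, so no pair could pass 0.05.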
